A study of Mus musculus with 4 samples.

Results

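The Sox genes considered here are 10 members of the family other than Sox2, the Sox factor of the core pluripotency network. They are Sox1, Sox3, Sox4, Sox10, Sox11, Sox12, Sox13, Sox15, Sox18 and Sox21. They were chosen by gene name among the 56748 genes listed in the deposited tables, and all 10 had enough reads to be tested, among 18157 genes tested. The remaining 10 genes of the family, Sry, Sox2, Sox5, Sox6, Sox7, Sox8, Sox9, Sox14, Sox17 and Sox30, served for comparison, although most of them also stand outside that network. Expression was measured by RNA-seq in E14, a mouse embryonic stem cell line kept without feeder cells in serum and leukemia inhibitory factor. WT cells gave 2 libraries, WT1 and WT2. KO1 and KO2 each came from a separate Npac KO line, picked as a colony after CRISPR/Cas9 editing of Npac. Npac, listed as Glyr1, is a nuclear protein that binds nucleosomes and acts in transcription elongation. The comparison asks which of these genes differ between Npac KO and WT cells. Differences that both KO lines share for another reason cannot be told apart from effects of Npac loss. The KO lines serve as replicates of the knockout, and nothing in the labels says that WT1 and WT2 are separate cultures, so p-values measure the spread between these libraries, which may be partly technical.

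Sox proteins are transcription factors that bind the minor groove of DNA through an HMG box and bend it. They usually act with a partner factor bound next to them, and the family is divided into groups by the sequence of the box. In mouse ES cells Sox2 pairs with Oct4 on pluripotency enhancers, Sox15 can bind the same kind of site, and most other members are best known from later lineages such as neural progenitors, neural crest, muscle and endothelium.

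Because the HMG box is the part that members share, its coding sequence shows how far reads of one Sox gene could be counted on another. The stretch of 237 bases that codes for the box was read from the GENCODE M21 transcripts (GRCm38) and is shown for Sox15, Sox11 and Sox1, 3 of the members whose expression changed, and for Sox4, the closest relative of Sox11. In each gene the stretch lies within 1 coding exon, and the 27 bases in capitals code for the conserved motif near the start of the box.
Sox15, chr11:69655505-69655741, plus strand: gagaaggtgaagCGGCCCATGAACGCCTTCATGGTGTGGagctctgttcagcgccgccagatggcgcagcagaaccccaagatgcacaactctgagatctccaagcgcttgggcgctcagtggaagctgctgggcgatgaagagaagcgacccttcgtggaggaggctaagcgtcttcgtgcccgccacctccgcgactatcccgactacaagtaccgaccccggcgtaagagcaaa
Sox11, chr12:27342034-27342270, minus strand: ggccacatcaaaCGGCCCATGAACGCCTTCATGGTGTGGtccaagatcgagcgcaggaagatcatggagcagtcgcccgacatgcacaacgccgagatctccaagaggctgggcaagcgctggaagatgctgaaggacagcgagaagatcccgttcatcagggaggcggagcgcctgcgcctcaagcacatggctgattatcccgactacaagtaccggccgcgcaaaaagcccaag
Sox4, chr13:28952617-28952853, minus strand: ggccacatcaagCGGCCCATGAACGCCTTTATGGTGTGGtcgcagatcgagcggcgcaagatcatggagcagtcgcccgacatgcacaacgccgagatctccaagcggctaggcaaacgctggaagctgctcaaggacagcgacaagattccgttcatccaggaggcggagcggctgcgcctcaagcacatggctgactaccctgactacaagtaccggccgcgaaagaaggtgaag
Sox1, chr8:12396505-12396741, plus strand: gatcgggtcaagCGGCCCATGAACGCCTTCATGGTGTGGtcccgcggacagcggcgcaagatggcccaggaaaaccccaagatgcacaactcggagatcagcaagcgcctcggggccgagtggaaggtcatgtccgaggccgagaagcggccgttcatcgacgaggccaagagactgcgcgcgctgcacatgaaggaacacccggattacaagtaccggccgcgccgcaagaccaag

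Over the 45 pairs of members, these stretches were identical at 57.4% to 89.5% of bases. The highest value belonged to Sox4 and Sox11, followed by Sox1 and Sox3 at 89.0%. Over whole transcripts, the longest run of identical bases between 2 members was 48 bases, again between Sox4 and Sox11, and 45 bases between Sox1 and Sox3. With Sox2, the most abundant Sox gene, Sox1 was identical at 89.5% of bases of the stretch, with a longest run of 38 bases. Over the 145 pairs of a member with any other Sox gene, the longest run was again 48 bases. These runs are shorter than the paired-end reads that were counted.

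In Npac KO cells Sox15, Sox11 and Sox10 were up-regulated and Sox1 was down-regulated, while the other 6 members did not pass the test. The test was the quasi-likelihood test of edgeR over all genes, adjusted by the method of Benjamini and Hochberg, and a call needed an adjusted p under 0.05 with more than a 1.5-fold difference. Each log2 fold change is given with its standard error (SE). Among all genes tested, 10.9% were called higher and 10.6% lower in Npac KO cells, against 3 and 1 of the 10 members. The median log2 fold change was 0.75 over the members and 0.00 over all genes tested. In TMM-normalized CPM (read counts scaled to a common library size), both KO libraries lay above both WT libraries for 5 members and below them for 2, and the ranges overlapped for 3. The corresponding shares of all genes tested were 33.2% and 32.5%.

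**Figure D1:**
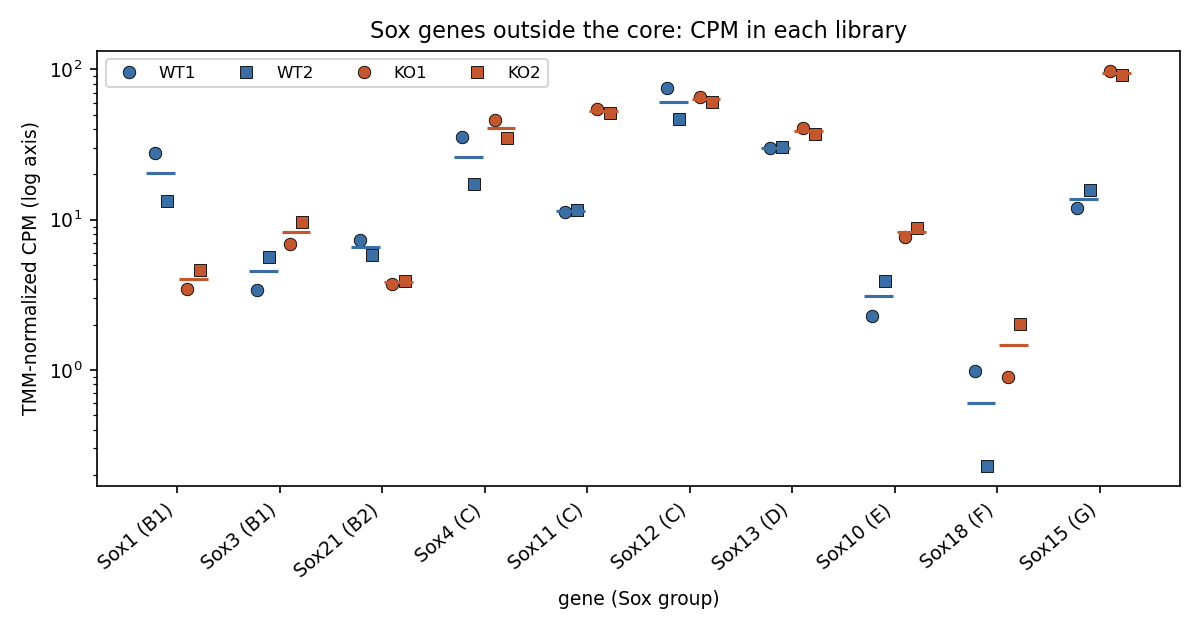
TMM-normalized CPM on a log axis for the 10 members in WT1 and WT2 (blue) and KO1 and KO2 (red), with the mean of each genotype as a bar. The Sox15 and Sox11 points of the KO libraries lie well above those of the WT libraries, the Sox1 points lie below, and for Sox4, Sox12 and Sox18 the genotypes overlap.

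The total count was between 15850805 and 16965120 reads per library. Glyr1 had 3961 reads in WT1 and 3115 in WT2, against 744 in KO1 and 888 in KO2 (log2 fold change -2.14, SE 0.23, adjusted p = 0.00183, edgeR). Of 8 mouse ES cell markers edgeR called 1 down, Zfp42, and 0 up (at an unadjusted p under 0.05, 3 were lower and 0 higher, and DESeq2 called 3 down), and Pou5f1 and Nanog remained abundant, with at least 8726 reads in each library. Genes on chromosomes 11 and 8 were shifted as a whole in both KO lines. The median log2 difference from WT was 0.51 in KO1 and 0.48 in KO2 on chromosome 11, and 0.51 and 0.52 on chromosome 8, whereas other chromosomes lay between -0.20 and 0.00. Sox15 lies on chromosome 11 and Sox1 on chromosome 8, so their values are also given with the chromosome median removed. Values of other genes on these chromosomes are as fitted unless stated. In bulk RNA, fewer cells that express a gene and less of its RNA per cell cannot be told apart.

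Sox15 (ENSMUSG00000041287), the only member of the SoxG group, is expressed in ES cells and placenta and is known for its part in muscle regeneration. It had 182 reads in WT1 and 274 in WT2, against 1529 in KO1 and 1597 in KO2. Both KO libraries stood far above both WT libraries. The mean rose 6.90-fold, from 13.8 ± 2.66 CPM (SD, n = 2) to 95.3 ± 4.31 CPM (SD, n = 2). The log2 fold change was 2.79 (SE 0.22, adjusted p = 0.000558, edgeR). With the median of its chromosome removed it was 2.29 (SE 0.21, adjusted p = 0.00125, edgeR). All 12 alternative settings called the gene, with log2 fold changes from 2.29 to 2.995.

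Sox15 lies on chromosome 11 from 69546140 to 69547553 on the plus strand in the authors' files. Its 3′ end overlaps that of Mpdu1 on the opposite strand by a short stretch, and the use of strand in counting is not given in the sources used here. Mpdu1, which encodes a protein needed for the use of dolichol-linked mannose, had 1697, 1282, 2716 and 2133 reads in WT1, WT2, KO1 and KO2 (log2 fold change 0.69, adjusted p = 0.096, edgeR). The nearest upstream gene, Fxr2, an RNA-binding protein related to FMRP that ends 2017 bases before Sox15, rose (log2 fold change 1.92, SE 0.20, adjusted p = 0.00166, edgeR). On the other side the nearest tested gene outside the overlap, Cd68 at 7486 bases, was not called (log2 fold change 0.49, adjusted p = 0.229, edgeR). Eif4a1, which encodes a translation initiation helicase and lies 10209 bases away on that side, rose by 1.43 on the log2 scale (SE 0.22, adjusted p = 0.00548, edgeR).

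Within 100 kb of Sox15, 5 of 17 tested genes were called up and 0 down by edgeR. At an unadjusted p under 0.05, 8 were higher and 0 lower, and DESeq2 called 5 up and limma-trend 4, with 0 down in both. After removal of the chromosome median 2 of them were called up, Fxr2 at 1.42 and Eif4a1 at 0.94. Within 250 kb the counts were 5 up and 2 down of 35 genes, with a median log2 fold change of 0.29, and with the chromosome median removed they were 2 up and 5 down. For chromosome 11 as a whole, 26.5% of 1455 tested genes were called up. The value of Sox15 was above that of every tested gene within 250 kb.

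**Figure D2:**
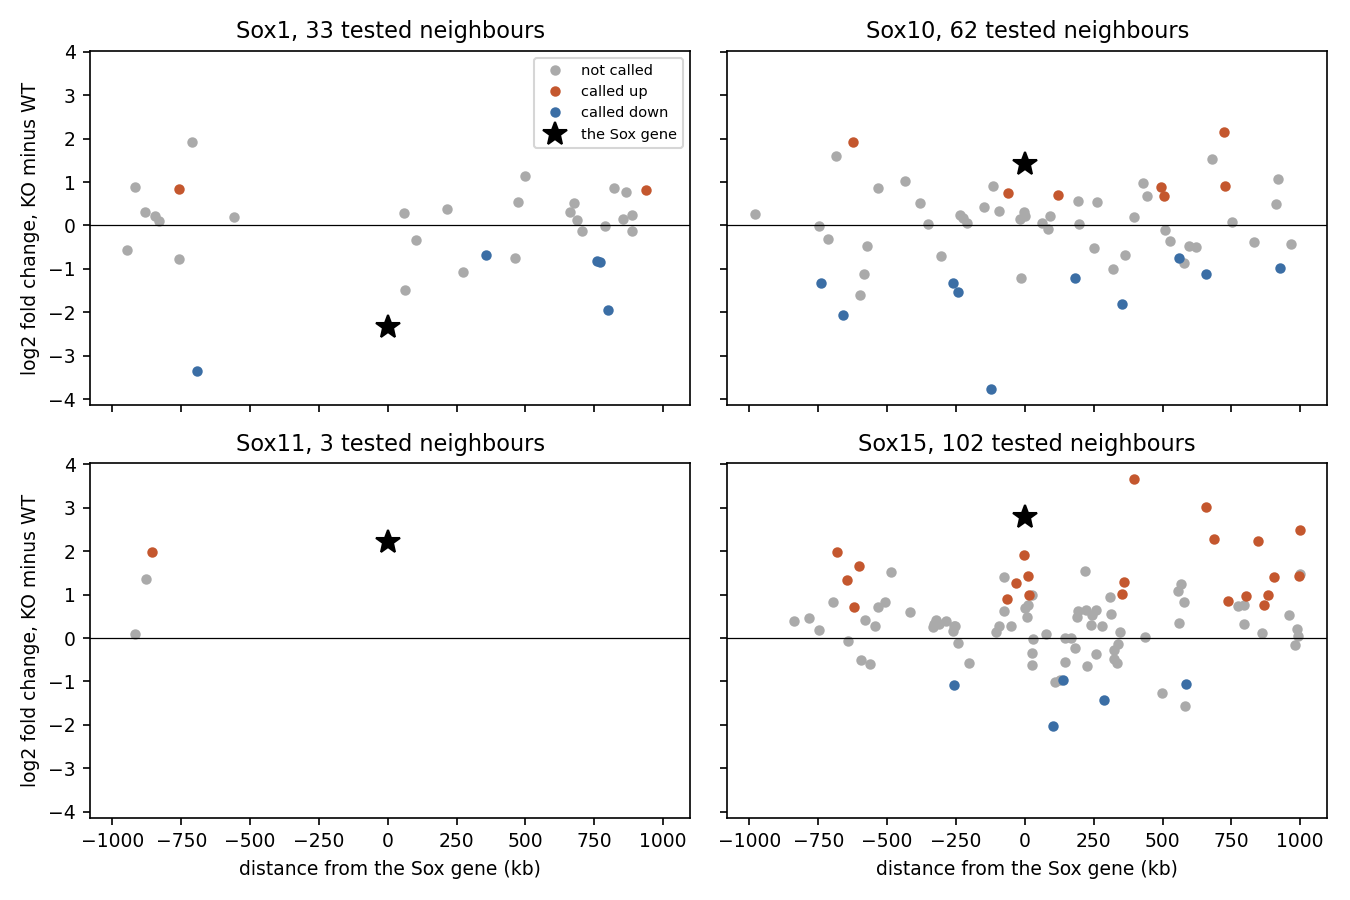
Log2 fold change (Npac KO minus WT) of every tested gene within 1000 kb of the 4 called members, against the distance from the member in kb. Each dot is a neighbour coloured by its call and the star is the Sox gene. Near Sox15, 5 of 17 genes within 100 kb are called up, and Sox11 has 3 tested neighbours, the nearest of them Cmpk2, called up at 1.98.

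The SoxC genes Sox4, Sox11 and Sox12 are activators known from neuronal and mesenchymal progenitors, where Sox4 and Sox11 often act on the same genes. Sox11 (ENSMUSG00000063632, chromosome 12, 27384263 to 27392573, minus strand) had 171 reads in WT1 and 203 in WT2, against 849 in KO1 and 893 in KO2. The replicates lay close together and the genotypes were well apart. The mean rose from 11.4 ± 0.299 CPM (SD, n = 2) to 53.1 ± 2.14 CPM (SD, n = 2), which is 4.65-fold. The log2 fold change was 2.22 (SE 0.21, adjusted p = 0.00112, edgeR), and all 12 alternative settings called the gene, with log2 fold changes from 1.63 to 2.32.

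Sox4 had 540 reads in WT1 and 300 in WT2, against 718 in KO1 and 608 in KO2. KO2 and WT1 were nearly equal after normalization, so the genotypes overlapped. The log2 fold change was 0.63 (SE 0.34, adjusted p = 0.221, edgeR). Without WT1, which had the higher WT value, it was 1.22 (adjusted p = 0.000165, edgeR), and with the replicate number as a block it was 0.70 (adjusted p = 0.0245, edgeR), so whether Sox4 is called depends on WT1 and on the setting. Sox12, which overlaps in expression with the other SoxC genes in the embryo, had 1148, 820, 1024 and 1045 reads in WT1, WT2, KO1 and KO2. Both KO values lay between the WT values, and the log2 fold change was 0.05 (SE 0.25, adjusted p = 0.908, edgeR).

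Per length, the SoxC genes together came to 25.4 FPKM in WT1 and 15.4 in WT2, against 30.9 in KO1 and 26.6 in KO2. FPKM is the number of fragments scaled to gene length and a size for each library. The sizes implied by the authors' FPKM were 15376091, 17622289, 15599431 and 17622289 for WT1, WT2, KO1 and KO2, which differ from the total counts. Sox12 supplied 65.9% and 67.9% of that sum in the WT libraries, against 47.7% and 50.05% in the KO libraries. Sox11 supplied 5.26% and 9.01% in the WT libraries, against 21.2% and 22.9% in the KO libraries. The share of Sox4 ran from 23.1% to 31.1% with no separation of the genotypes.

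The SoxB1 genes Sox1 and Sox3 are, like Sox2, activators that keep neural progenitors undifferentiated. Sox1 (ENSMUSG00000096014, chromosome 8, 12445295 to 12450126, plus strand) had 424 reads in WT1 and 234 in WT2, against 54 in KO1 and 80 in KO2. WT1 was well above WT2, and even so neither KO library reached the lower WT value. The mean fell from 20.6 ± 10.2 CPM (SD, n = 2) to 4.05 ± 0.812 CPM (SD, n = 2). The log2 fold change was -2.34 (SE 0.42, adjusted p = 0.0099, edgeR), and -2.85 (adjusted p = 0.00655, edgeR) with the chromosome median removed. Of 12 alternative settings 11 called it, and on log2(FPKM + 1) with limma-trend it was -1.46 (adjusted p = 0.0532).

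Sox1ot, a noncoding transcript on the same strand that spans Sox1, had 25 reads in WT1 and 3 or 4 in each of the other libraries and was not tested. The tested genes within 250 kb of Sox1 numbered 4, of which 0 were called by edgeR, DESeq2 or limma-trend and 1 was lower at an unadjusted p under 0.05 (edgeR). Within 1000 kb, 2 of 33 were called up and 5 down, on a chromosome where 25.6% of tested genes were called up and 5.21% down.

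Sox3, on the X chromosome, had 52 reads in WT1 and 99 in WT2, against 107 in KO1 and 167 in KO2. Neither WT library reached the lower KO value, but the log2 fold change, 0.86 (SE 0.40, adjusted p = 0.16, edgeR), did not pass the test. Without WT2 it was 1.28 and passed (adjusted p = 0.0103, edgeR). The summed FPKM of Sox1 and Sox3 was 7.35 in WT1 and 5.47 in WT2, against 4.04 in KO1 and 5.53 in KO2, so the genotypes overlapped for the sum. Sox21, a SoxB2 repressor that counteracts SoxB1 proteins during neurogenesis, had 112, 102, 58 and 68 reads in WT1, WT2, KO1 and KO2. The KO values were the lower ones and the genotypes did not overlap (log2 fold change -0.78, SE 0.37, adjusted p = 0.165, edgeR).

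Sox10 (ENSMUSG00000033006, chromosome 15, 79039108 to 79049440, minus strand) is the SoxE factor of neural crest and glia. It had 35 reads in WT1 and 68 in WT2, against 120 in KO1 and 153 in KO2, so that it stayed a low gene in every library while the genotypes did not overlap. The mean rose from 3.09 ± 1.13 CPM (SD, n = 2) to 8.28 ± 0.792 CPM (SD, n = 2). The log2 fold change was 1.42 (SE 0.41, adjusted p = 0.0436, edgeR). The call was lost without KO1 (adjusted p = 0.179), without KO2 (adjusted p = 0.24) and on both FPKM scales with limma-trend (adjusted p = 0.0781 and 0.0772), and 8 of 12 settings kept it.

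Sox13, a SoxD protein without an activation domain of its own, had 455 reads in WT1 and 531 in WT2, against 637 in KO1 and 640 in KO2. The KO libraries were above the WT libraries by a small margin, and the log2 fold change was 0.37 (SE 0.20, adjusted p = 0.207, edgeR). Sox18, a SoxF factor of blood and lymphatic endothelium, had 15, 4, 14 and 35 reads in WT1, WT2, KO1 and KO2. At this depth its genotypes overlapped (log2 fold change 1.29, SE 0.77, adjusted p = 0.263, edgeR). Without WT1 the log2 fold change was 2.62 (adjusted p = 0.0287, edgeR).

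**Figure D3:**
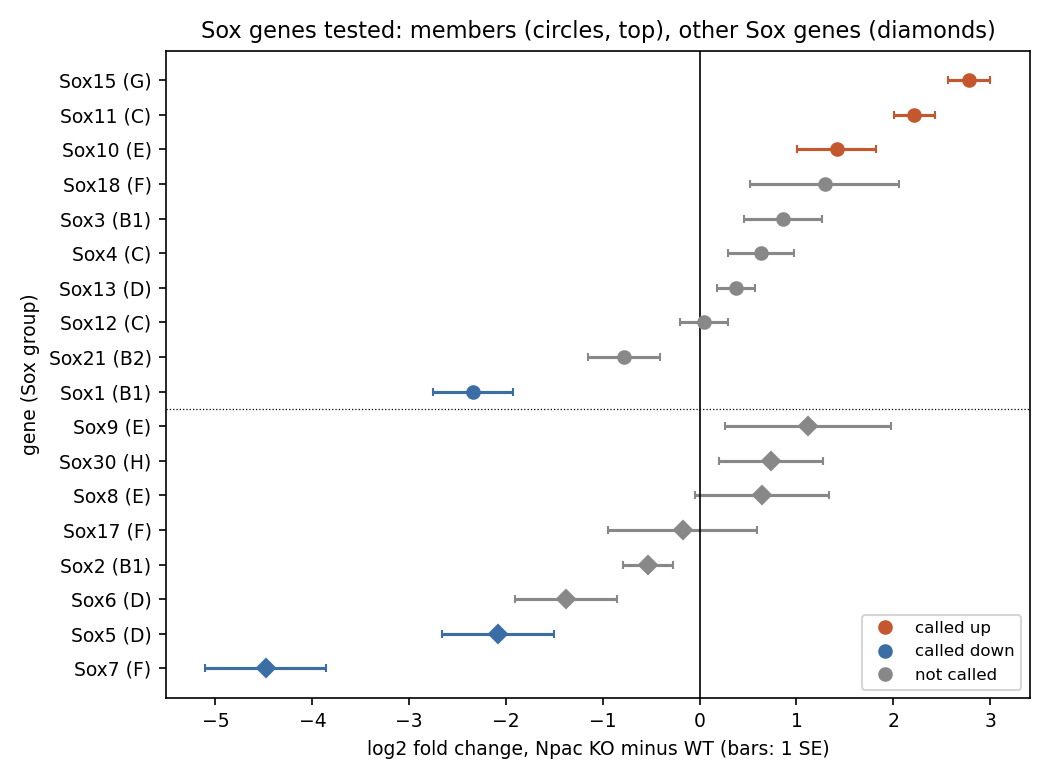
Log2 fold change (Npac KO minus WT, bars 1 standard error) of the 18 Sox genes tested, the members as circles above the dotted line and the other family genes as diamonds below it, coloured by call. Sox15 is highest at 2.79 and Sox7 lowest at -4.48.

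Levels of different genes were compared in FPKM. In WT cells Sox15 was the highest member, at 13.8 and 18.1 FPKM, with Sox12 next at 16.8 and 10.5 FPKM, and the ranges of these genes overlapped. In Npac KO cells Sox15 stood apart at 114 and 105 FPKM, above Sox12 at 14.7 and 13.3 FPKM. Sox11 had rank 8 in WT cells at a mean of 1.36 FPKM and rank 5 in Npac KO cells at 6.32 FPKM. Sox1 had rank 5 in WT cells at a mean of 4.23 FPKM and was last in Npac KO cells at 0.828 FPKM, where its range overlapped that of Sox18. Sox18 was last in WT cells at 0.371 FPKM. Among the 9 pairs of neighbours in the order, the ranges overlapped for 4 in WT cells (Sox15 and Sox12, Sox13 and Sox4, Sox4 and Sox1, Sox3 and Sox21) and for 3 in Npac KO cells (Sox13 and Sox4, Sox21 and Sox18, Sox18 and Sox1).

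The 10 members together came to 56.7 FPKM in WT1 and 48.8 in WT2, against 162 in KO1 and 151 in KO2. Sox15 made up 24.3% and 37.0% of that sum in the WT libraries, against 70.1% and 69.7% in the KO libraries. Summed over all 20 Sox genes, FPKM was 502 in WT1 and 352 in WT2, against 459 in KO1 and 368 in KO2, so the family total overlapped between genotypes. Its make-up did not overlap. Sox2 held 87.4% and 84.5% of the family total in the WT libraries, against 64.2% and 58.0% in the KO libraries, and the members held 11.3% and 13.9% against 35.4% and 41.0%.

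**Figure D4:**
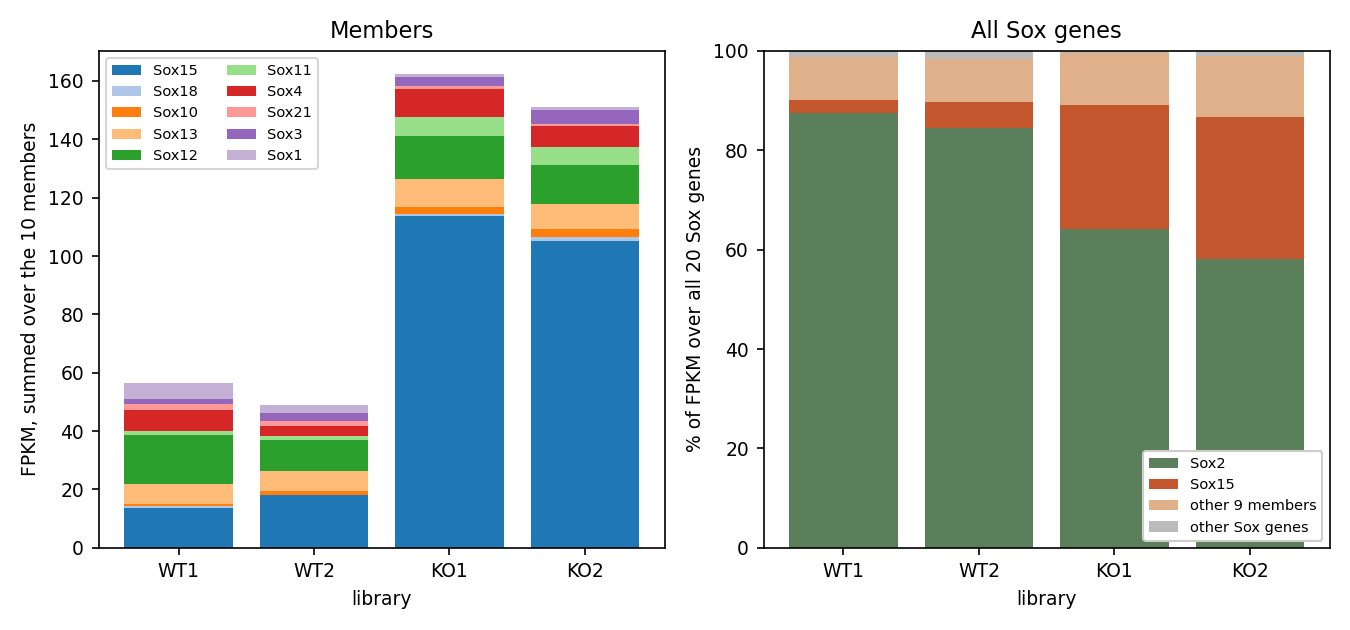
Left, FPKM of the 10 members stacked for each library, and right, the percentage of the FPKM of all 20 Sox genes held by Sox2, Sox15, the other 9 members and the remaining genes. The members' sum is 56.7 and 48.8 FPKM in the WT libraries, against 162 and 151 FPKM in the KO libraries, with Sox15 as the largest segment of the KO bars.

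Among the other Sox genes, 8 were tested, of which 0 were called up and 2 down by edgeR. The shares called over all genes tested were 10.9% and 10.6%. The median log2 fold change of the 8 other Sox genes was -0.35. At an unadjusted p under 0.05, 0 were higher and 3 lower, and DESeq2 and limma-trend on both FPKM scales called 0 up and 1 down. Sox5 was too low in FPKM to be tested on those scales. Sox2 itself had 13865 reads in WT1 and 10780 in WT2, against 9449 in KO1 and 7747 in KO2. In CPM these were 908 and 617 against 608 and 448, so that KO1 lay close to WT2 and KO2 well below WT1 and WT2. The log2 fold change, -0.53 (SE 0.26, adjusted p = 0.174, edgeR), did not pass the test. Sox2ot, the noncoding transcript on the same strand that contains Sox2, fell with 182, 169, 31 and 27 reads in WT1, WT2, KO1 and KO2 (log2 fold change -2.60, adjusted p = 0.00515, edgeR).

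Sox7, an endodermal and endothelial SoxF factor, had 273 reads in WT1 and 162 in WT2, against 4 in KO1 and 16 in KO2. This was the largest fall in the family (log2 fold change -4.48, SE 0.63, adjusted p = 0.00466, edgeR). Sox5, a SoxD gene, fell from 31 and 24 reads to 6 and 7 (log2 fold change -2.08, adjusted p = 0.0402, edgeR), and neither DESeq2 (adjusted p = 0.113) nor the fits with the chromosome median removed (adjusted p = 0.0514) or without WT1, KO1 or KO2 (adjusted p = 0.093 to 0.275) called it.

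The SoxD relative Sox6 had 65, 39, 17 and 24 reads in WT1, WT2, KO1 and KO2 (log2 fold change -1.38, adjusted p = 0.0985, edgeR). Sox8, Sox9, Sox17 and Sox30 had 1 to 79 reads in each library, and their adjusted p-values lay between 0.355 and 0.893 (edgeR). Sox9 and Sox30 lie on the shifted chromosome 11. With its median removed, their log2 fold changes went from 1.12 to 0.63 and from 0.74 to 0.24. Without WT2, 3 genes gained a call in edgeR, namely Sox2 at a log2 fold change of -0.79 (adjusted p = 0.00331), Sox6 at -1.77 (adjusted p = 0.00444) and Sox9 at 3.65 (adjusted p = 0.0298). Sox14 had at most 5 reads and Sry had 0 in each library, and neither was tested.

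Promoters were examined for the called members. RefSeq promoters (GRCm38.p6, 250 bases before to 50 after the start) were matched by symbol for 7 of the 10 members, not for Sox3, Sox10 and Sox18, and those of Sox15, Sox11 and Sox1 are shown because these 3 genes moved most. Capitals mark matches on either strand to the SOX element ACAAAG. They also mark its second form ACAATG. The TATA box was searched as TATAAA. The CCAAT box was searched by its name, and the GC box as GGGCGG. None of these motifs contains another.
Sox15, chr11:69654787-69655086, plus strand: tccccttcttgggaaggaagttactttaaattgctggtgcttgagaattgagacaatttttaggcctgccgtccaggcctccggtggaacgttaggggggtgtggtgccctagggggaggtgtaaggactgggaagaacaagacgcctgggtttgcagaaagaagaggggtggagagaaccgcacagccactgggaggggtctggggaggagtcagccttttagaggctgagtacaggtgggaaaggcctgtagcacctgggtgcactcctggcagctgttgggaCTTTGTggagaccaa
Sox11, chr12:27342669-27342968, minus strand: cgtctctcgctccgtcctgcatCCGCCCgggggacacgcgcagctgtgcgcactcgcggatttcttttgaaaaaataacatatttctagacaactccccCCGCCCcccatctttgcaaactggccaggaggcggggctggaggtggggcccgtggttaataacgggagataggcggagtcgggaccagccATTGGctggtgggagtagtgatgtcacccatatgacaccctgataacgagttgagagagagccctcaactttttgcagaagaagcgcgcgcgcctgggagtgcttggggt
Sox1, chr8:12395269-12395568, plus strand: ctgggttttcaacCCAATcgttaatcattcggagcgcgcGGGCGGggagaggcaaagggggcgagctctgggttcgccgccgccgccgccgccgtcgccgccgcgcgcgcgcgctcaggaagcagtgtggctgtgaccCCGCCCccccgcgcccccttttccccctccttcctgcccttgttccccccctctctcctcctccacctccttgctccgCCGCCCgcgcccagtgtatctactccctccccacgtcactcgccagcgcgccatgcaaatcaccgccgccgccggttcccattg

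The Sox15 promoter held 5 CpG dinucleotides and 56.0% G and C, against a median of 7 CpG and 52.7% over 32851 promoters of the same length. It was the least CpG-rich of the 7 member promoters. The Sox1 promoter held 37 CpG and that of Sox11 held 21. The Sox15 window held 1 match to the SOX element ACAAAG, found in 18.7% of all promoters, and 0 to the others. The Sox11 window held 1 CCAAT box and 2 GC boxes, and the Sox1 window 1 CCAAT box and 3 GC boxes. The CCAAT box occurred in 37.4% of all promoters, the GC box in 35.7%, the TATA box in 13.6% and the second SOX form in 12.6%.

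Partners and targets of Sox proteins were taken from lists of known genes. Of 15 partner factors 11 were tested, with 2 called up and 3 down by edgeR, against 10.9% and 10.6% of all genes tested. Tcf7, a TCF/LEF factor of Wnt signaling, rose from 524 and 802 reads in WT1 and WT2 to 2732 and 2712 in KO1 and KO2. Its log2 fold change was 2.05 (SE 0.21, adjusted p = 0.00146, edgeR), with the shift of its chromosome 11 not removed. Ctnnb1, which encodes beta-catenin, fell from 18430 and 18300 reads to 9286 and 8595 (log2 fold change -1.04, adjusted p = 0.0124, edgeR). Pou3f1 fell by 0.88 and Rbpj by 0.86 on the log2 scale (adjusted p = 0.0419 and 0.039, edgeR). Pou3f2, a neural POU factor, was called up, with 0, 2, 23 and 13 reads in WT1, WT2, KO1 and KO2, so that both WT values were at or under the floor of 3 reads. For the Oct4 gene Pou5f1 the log2 fold change was -0.43 (adjusted p = 0.16, edgeR).

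Of 10 genes known as targets of SoxB1 factors and Sox15 in ES cells, among them Fgf4, Utf1, Fbxo15 and Nanog, 10 were tested and 0 were called in either direction by edgeR, with a median log2 fold change of -0.14. At an unadjusted p under 0.05, 1 was higher and 1 lower, DESeq2 called 1 up, and limma-trend called 0. Of 3 SoxC targets 2 were tested, with Tead2 at 0.36 and Tubb3 at 0.15. Of these, 0 were called by edgeR, DESeq2 or limma-trend or had an unadjusted p under 0.05 in edgeR. Of 10 Sox10 targets 8 were tested, and edgeR called 1 up and 1 down, against 10.9% and 10.6% of all genes tested. Erbb3, the neuregulin receptor of Schwann cell precursors, rose by 0.80 on the log2 scale (adjusted p = 0.0429, edgeR), Ednrb, the endothelin receptor of melanoblasts, fell by 2.76 on the log2 scale (adjusted p = 0.0193, edgeR), and the median was 0.02. On both FPKM scales limma-trend called 0 of the Sox10 targets. Of 3 Sox18 targets, Cldn5, an endothelial tight junction gene, rose from 5 and 18 reads to 94 and 111 (log2 fold change 3.16, SE 0.58, adjusted p = 0.0106, edgeR). Prox1, a second target of Sox18, had 0, 9, 24 and 48 reads in WT1, WT2, KO1 and KO2. It was not called by edgeR (adjusted p = 0.0663) and was called by DESeq2 (log2 fold change 3.03, adjusted p = 0.0358).

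Markers of the cell types in which the members are best known moved as follows. Of 8 neural crest and glia markers 5 were tested, with Erbb3 up and Foxd3 and Ednrb down. Over all genes tested, edgeR called 10.9% up and 10.6% down. Foxd3 fell from 758 and 371 reads to 206 and 125 (log2 fold change -1.79, adjusted p = 0.0298, edgeR). On both FPKM scales limma-trend called 0 of the neural crest and glia markers. Of 8 endothelial markers 6 were tested, and 0 were called by edgeR, DESeq2 or limma-trend or had an unadjusted p under 0.05 in edgeR. The defining marker Cdh5 had 9, 15, 1 and 4 reads in WT1, WT2, KO1 and KO2, and Emcn had 0 in all.

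Among 6 skeletal muscle markers 3 were tested and 0 were called by edgeR, DESeq2 or limma-trend, with 2 higher at an unadjusted p under 0.05 (edgeR), and Myod1, Myf5 and Myog had at most 19 reads in any library. Of 8 trophoblast markers 6 were tested and 1, Tfap2c, rose by 1.81 on the log2 scale (adjusted p = 0.00467, edgeR), while Cdx2 had 0, 3, 0 and 16 reads in WT1, WT2, KO1 and KO2. Of 8 primitive endoderm markers 6 were tested and 1, Lama1, fell by 2.69 on the log2 scale (adjusted p = 0.00274, edgeR). The summed CPM of each whole list overlapped between genotypes for neural progenitor (77.3 to 84.3 in WT cells, 80.6 to 87.0 in Npac KO cells), neural crest and glia (100 to 113, 96.3 to 107), endothelium (150 to 217, 213 to 242) and skeletal muscle (31.1 to 53.0, 47.0 to 54.4). It did not overlap for trophoblast (93.2 to 93.8, 206 to 230), primitive endoderm (248 to 428, 68.2 to 77.3) and mouse ES cell markers (5353 to 6473, 4509 to 4688). Most of the primitive endoderm sum was Lama1, and without it the sums were 18.9 and 22.6 in WT1 and WT2 and 20.7 and 26.3 in KO1 and KO2, which overlap. Without Tfap2c the trophoblast sums were 42.5, 62.1, 74.6 and 72.1, and without Zfp42 the mouse ES cell sums were 5528, 4656, 4553 and 4380, in the same order of libraries. Most of the skeletal muscle sum was Des, at 29.9, 50.4, 40.2 and 48.0 CPM in WT1, WT2, KO1 and KO2. The other tested muscle markers, Pax7 and Chrna1, were higher in both KO libraries but not called (adjusted p = 0.0615 and 0.0506, edgeR). The part of such cell types in the Sox values was not tested.

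For each called member, the 2 genes with the most similar profile over the 4 libraries were found by Euclidean distance between mean-centred log2 CPM. The search covered tested genes that the authors' annotation lists as transcription factors, a class taken as given. Tbx3 (distance 0.34) and Zfp36l1 (0.36) lay nearest to Sox1, and Zfp981 (0.11) and Tcf7 (0.30) to Sox11. Trp73 (0.21) and Myb (0.26) lay nearest to Sox15, and Foxn4 (0.07) and Zfp692 (0.15) to Sox10. Tcf7 and Zfp692 lie on the shifted chromosome 11. Myb, for example, rose from 23 and 38 reads to 222 and 274. With 4 libraries such distances are descriptions only.

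The files annotate 51 genes as HMG family transcription factors, a class that includes all Sox genes. Without the Sox genes and Sry, 29 of 31 were tested, and 2 were called up and 3 down, with a median log2 fold change of 0.19. Over all 1257 tested genes annotated as transcription factors, 102 were called up and 150 down, with a median of -0.10. The shares called among all genes tested, of any class, were 10.9% up and 10.6% down.

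**Figure D5:**
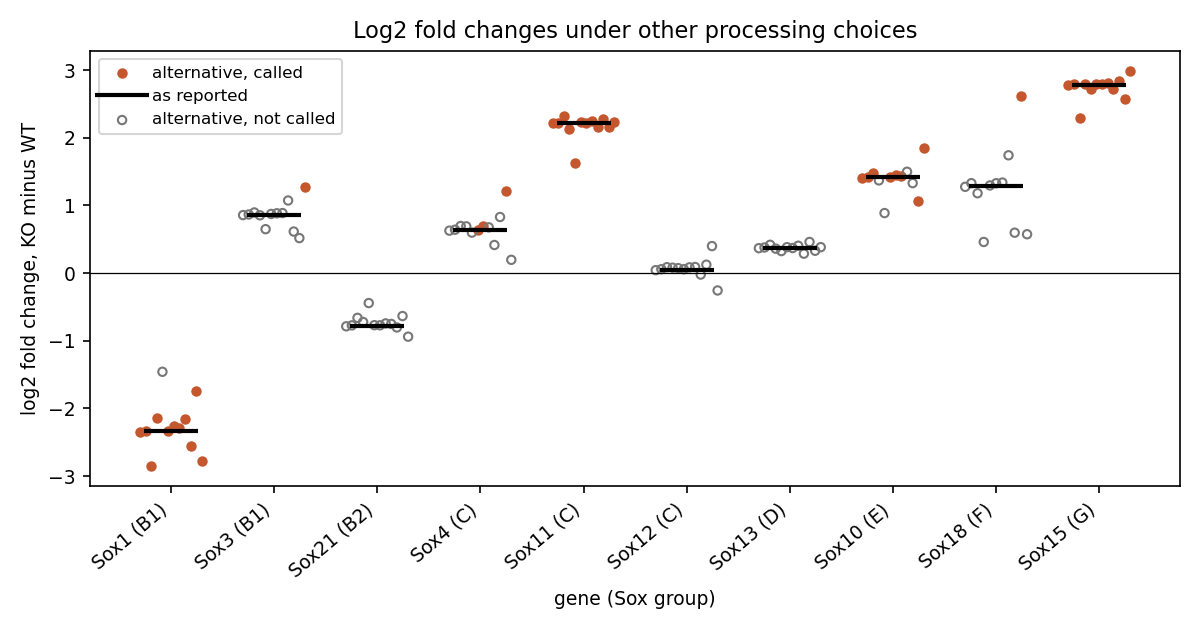
Log2 fold change (Npac KO minus WT) of each member as reported (black bar) and under each alternative setting (points, filled where called). Sox15 and Sox11 are called under every setting shown and Sox1 under 11 of 12, whereas Sox10 is called under 8 of 12 and the values of Sox12 fall on both sides of 0.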

How the data were processed

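RNA-seq libraries of E14 cells (2 WT, 2 Npac KO lines) were compared. The authors deposited raw read counts per gene, and FPKM values that the authors computed from these counts and gene length. The submitters' processing notes name CASAVA, HISAT2 2.0.5, featureCounts 1.5.0-p3 and mm10. Strand use and the annotation release are not given in the sources used here. Of 52125 genes shared with GENCODE M21 (GRCm38), 1487 had the same start and end, so gene coordinates are those of the authors' files, and sequences carry their own GRCm38 coordinates. The counts went into edgeR 4.0.16 under R 4.3.3 (filterByExpr, TMM, robust quasi-likelihood fit), with limma 3.58.1 on log2(FPKM + 0.1) and log2(FPKM + 1) and DESeq2 1.42.0 as alternatives. Other alternatives covered upper-quartile scaling, count filters, a replicate block, removal of chromosome medians, no fold threshold and leaving out each library. Calls needed an adjusted p below 0.05 and over 1.5-fold difference. Floors of 3 reads cover counting error only. In simulated data with 2 libraries each over 18157 genes, the test recovered 10% of 2-fold and 88% of 4-fold changes. These shares describe the simulated data and do not give the power for any gene here. Total counts were 15850805 to 16965120 per library, and the common biological coefficient of variation was 0.235. Named genes are the members, the rest of the family, Glyr1, genes overlapping a member, up to 4 called genes per list with the largest change, defining markers, and the nearest profiles. Targets and markers given as examples, and the neighbours of Sox15 and Sox1, were chosen after their values were seen. The members and lists were chosen with earlier results of these data known. Some genes that were tested are not reported here.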

Additional observations from a re-analysis of the deposited data

How the results depend on the processing

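Of 119 log2 fold changes of members under alternative settings, 107 kept their direction and their side of the threshold, 5 lost the call, 5 gained it and 2 turned, and of 91 for the other Sox genes the numbers were 78, 5, 3 and 5. Leaving out each library in turn gave 2 to 5 members called up, with 5 without WT1, and 1 member down. For the other Sox genes it gave 0 to 1 called up and 1 to 4 called down. On log2(FPKM + 1), 0 members were called down. For the other Sox genes called down, the count of 2 became 0 with at least 10 reads required in every library, where fewer genes were tested, and 1 with the chromosome median removed and with DESeq2. It was also 1 on both FPKM scales, where Sox5 was too low to be tested. With the replicate block 4 members were called up. The numbers were not taken as pairing: the labels do not say so, there are only 2 pairs, and the log2 difference of WT1 and WT2 correlated with that of KO1 and KO2 at 0.345 across genes. The block raised the calls over all genes from 1971 to 3104 up and from 1924 to 2968 down. Sox17 turned to 0.003 with the replicate block and 0.026 on log2(FPKM + 0.1). With each library left out in turn, Sox12 ranged from -0.26 to 0.40, Sox8 from -0.37 to 1.53 and Sox17 from -0.95 to 1.39. The cause of these changes was not tested. A fit without 1 library assumes that the lone library of its genotype varies like the other genotype. Over all genes, leaving out a library gave 795 to 3557 called up and 789 to 3326 down. Precision rests on 2 libraries per genotype, and Sox18 and Sox9 had at most 35 and 15 reads in a library.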
